A study of Homo sapiens with 6 samples.

Results

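The genes described here are the tripartite motif (TRIM) genes of THP-1, a human cell line grown from a monocytic leukaemia, measured after differentiation with PMA and in the unstimulated line. A gene was taken as a member where a probe set (the probes that stand for 1 transcript on the array) carried its symbol alone and that symbol was TRIM followed by digits and at most 1 letter. This gave 54 genes of 18417 tested, from 66 probe sets. The brightest probe set by mean over the 6 arrays stood for each gene. The PMA group was 3 arrays of cells that received 200 nM phorbol myristate acetate for 3 days and were then rested without it for 3 days. The unstimulated group was 3 arrays of the same line without PMA. All cells are 1 leukaemic line, grown in RPMI with serum, glutamate and mercaptoethanol, so neither group is a primary monocyte or macrophage. The labels do not state that the arrays of a group are separate cultures. The p-values therefore describe the spread of these arrays alone, and that spread may be technical.

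Most TRIM proteins carry a RING domain, B-boxes and a coiled coil, and many act as ubiquitin ligases that attach ubiquitin to a protein bound by their C-terminal domain. In myeloid cells several are known as antiviral factors or as regulators of RNA and DNA sensing, TRIM25 at the RNA sensor RIG-I and TRIM14 at the DNA sensor cGAS among them. Others work in the nucleus as transcription cofactors, on the cytoskeleton, or in muscle and nerve. Not every member is a ligase, since some lack the RING domain.

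Every value is a log2 expression value of a probe set, and a difference is PMA minus unstimulated on that scale. A gene was called where limma's moderated test gave a Benjamini-Hochberg adjusted p under 0.05 over all 18417 genes, two-sided. Array medians lay between 6.10 and 6.25 and array lower quartiles between 4.46 and 4.57. Of macrophage markers, 4 of the 7 measured were higher with PMA, among them MSR1 with a log2 difference of 5.99, and LYZ was lower. All 5 progenitor granule markers were lower. Of markers of cells that the line should not hold, none of 4 T cell genes and not the 1 measured erythroid gene was called, while CD79A (of 3 B cell genes) and KRT18 (of 4 epithelial genes) were lower and PDGFRB (of 4 fibroblast genes) was higher. In bulk RNA, fewer cells of a kind and less RNA per cell cannot be told apart.

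The promoters of 4 members are shown, chosen by log2 difference among called members with a promoter entry. They are the 2 highest (TRIM2 and TRIM26) and the 2 lowest (TRIM25 and TRIM14). Each is the 250 bases before the most upstream start listed by RefSeq (GRCh38.p14), 5′ to 3′ on the gene's strand. They lie at chr4:153151913-153152162 on the plus strand (TRIM2, 1 of 6 listed starts), chr6:30213407-30213656 on the minus strand (TRIM26), chr9:98119223-98119472 on the minus strand (TRIM14) and chr17:56914050-56914299 on the minus strand (TRIM25). Capitals mark matches to the interferon-stimulated response element (GAAA and GAAA with any 2 bases between them) and to the SP1 box (GGGCGG), on either strand.

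TRIM2: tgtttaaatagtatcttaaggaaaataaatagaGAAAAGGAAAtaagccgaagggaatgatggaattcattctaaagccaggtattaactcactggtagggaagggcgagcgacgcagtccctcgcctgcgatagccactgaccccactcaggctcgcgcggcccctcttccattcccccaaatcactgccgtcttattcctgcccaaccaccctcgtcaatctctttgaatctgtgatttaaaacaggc

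TRIM26: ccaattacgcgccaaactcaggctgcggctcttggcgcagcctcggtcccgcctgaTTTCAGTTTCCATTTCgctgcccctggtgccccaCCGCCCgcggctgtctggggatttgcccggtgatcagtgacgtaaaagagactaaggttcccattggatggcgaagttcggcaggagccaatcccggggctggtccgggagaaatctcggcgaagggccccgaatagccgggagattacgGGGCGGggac

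TRIM14: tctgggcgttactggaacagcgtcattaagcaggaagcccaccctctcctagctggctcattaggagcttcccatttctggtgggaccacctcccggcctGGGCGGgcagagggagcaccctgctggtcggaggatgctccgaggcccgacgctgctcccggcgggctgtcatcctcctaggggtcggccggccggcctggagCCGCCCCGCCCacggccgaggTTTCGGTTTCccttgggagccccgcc

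TRIM25: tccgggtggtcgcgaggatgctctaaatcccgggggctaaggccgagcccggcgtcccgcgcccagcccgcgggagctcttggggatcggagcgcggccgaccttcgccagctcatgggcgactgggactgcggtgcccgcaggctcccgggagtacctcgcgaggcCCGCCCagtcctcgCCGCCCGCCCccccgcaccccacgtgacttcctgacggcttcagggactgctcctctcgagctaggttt

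Of the 54 TRIM genes, 6 were higher with PMA, 7 were lower and 41 did not pass the test. The 6 higher are 11.1% of the members, against 13.2 percent of all tested genes, and the 7 lower are 13.0%, against 13.2 percent. In either direction 13 were called (24.1%), where 26.4 percent of all genes were, so the share called is close to the background. A change of at least 2-fold was reached by 3 members (TRIM2, TRIM8 and TRIM25), where 8.37 percent of all genes reached it. The PMA and unstimulated arrays did not overlap in 21 members, or 38.9%, against 41.2 percent of all genes. The median log2 difference was -0.05 over the members and -0.03 over all genes. No direction is drawn from that median, since centring each array on its own median turned it to 0.04 and gave 8 members higher and 5 lower. Over all genes the same centring gave 4713 calls and moved the share of calls that were higher to 61.8%, against 50.1%. Under quantile normalization and cyclic loess, 8 members were higher and 6 lower. Over all genes these 2 scalings gave 4916 and 4913 calls, of which 54.3% and 59.8% were higher. When every probe set of the table was tested, 11 members were called, where 19.6 percent of the 33297 probe sets were.

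**Figure D1:**
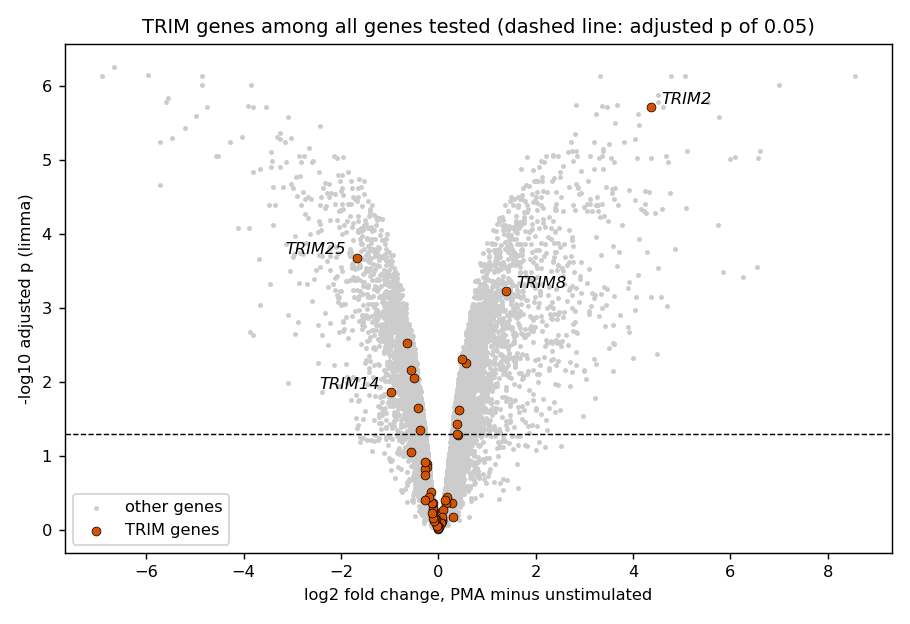
Log2 fold change (PMA minus unstimulated, x axis) against -log10 of limma's adjusted p (y axis) for the 54 TRIM genes (orange) and all other tested genes (grey), with the threshold as a dashed line. TRIM2 stands far to the right at 4.37, and TRIM8 at 1.39 and TRIM25 at -1.66 are the other 2 members past 2-fold.

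The NHL group, whose members bind RNA or cargo through a C-terminal propeller, held the member with the widest change. TRIM2, a ligase best known in neurons for its action on a neurofilament protein, had 10.13, 10.13 and 10.27 on the PMA arrays, against 5.49, 5.97 and 5.97 on the unstimulated arrays. All PMA arrays were thus far above all unstimulated arrays, with an SD of 0.08 among PMA arrays and 0.27 among unstimulated arrays, of which replicate 1 was the lowest. The log2 difference was 4.37 ± 0.14 (SE, n = 3 each), or 20.7-fold, with a 95% interval of 4.04 to 4.70 and limma adjusted p = 1.92e-06. Leaving out any 1 array kept it between 4.21 and 4.45.

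TRIM3, a close relative of TRIM2 that was also first studied in the brain, had 6.54, 6.30 and 6.45 with PMA, against 6.11, 6.14 and 5.88 in unstimulated cells. The groups did not overlap but lay near each other. Its difference was 0.39 ± 0.11 (SE, n = 3 each; limma adjusted p = 0.0368). The call was lost without PMA replicate 1 (limma adjusted p = 0.133), PMA replicate 3 (0.0701), unstimulated replicate 2 (0.0585) or unstimulated replicate 3 (0.122). It was also lost by limma when every probe set was tested (0.0525) and in a gene-wise test of the same model that shares no variance across genes (0.0961).

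The other 2 NHL members did not pass. TRIM32, a ligase mutated in a limb-girdle muscular dystrophy and reported to act on STING, had 7.55, 7.38 and 7.59 with PMA, against 7.51, 7.64 and 7.47 unstimulated. The groups overlapped and the 95% interval of the difference ran from -0.26 to 0.20. Of the 4 NHL genes, 2 were higher and none lower, where 13.2 percent of all genes were higher, and the call on TRIM3 was lost without any of the 4 arrays named above. The median log2 difference was 0.18. With so few genes, nothing particular to the group is read from the count.

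TRIM8, a ligase that acts in TNF and interleukin-1 signalling and binds the cytokine suppressor SOCS1, had the second-highest difference. Its values were 9.57, 9.10 and 9.13 with PMA, against 7.67, 7.91 and 8.05 unstimulated. Every PMA array was above every unstimulated array, with PMA replicate 1 the highest. The difference was 1.39 ± 0.16 (SE, n = 3 each), or 2.62-fold, with a 95% interval of 1.02 to 1.75 and limma adjusted p = 0.000591.

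Of 11 TRIM genes listed as interferon-inducible, 9 were measured alone. TRIM26 was higher and TRIM14 and TRIM25 were lower, a share called of 33.3% against 26.4 percent of all genes, and the median log2 difference was -0.20. A list of 13 measured regulators of RIG-I, cGAS, STING and Toll-like receptor signalling shares members with the first. The same 3 genes were called there (23.1%, against 26.4 percent) and the median was -0.10.

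TRIM25, which attaches ubiquitin chains to RIG-I and can also conjugate the ubiquitin-like protein ISG15, had 7.92, 8.25 and 8.52 with PMA, against 9.81, 9.90 and 9.96 unstimulated. The groups stood well apart, and the PMA arrays spread more widely (SD 0.30) than the unstimulated ones (SD 0.08). The difference was -1.66 ± 0.15 (SE, n = 3 each), with limma adjusted p = 0.000209. That is 3.16-fold lower with PMA, with a 95% interval of -2.01 to -1.31. Its promoter, printed above, held 3 SP1 boxes between positions -83 and -60 and no match to the response element.

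TRIM14, a member without a RING domain that works as an adaptor at the mitochondrial protein MAVS and at cGAS, had 8.65, 8.37 and 8.60 with PMA, against 10.04, 9.27 and 9.20 unstimulated. All PMA arrays were below all unstimulated arrays, and unstimulated replicate 1 was the highest of the 6. The difference was -0.97 ± 0.22 (SE, n = 3 each; 1.95-fold lower; limma adjusted p = 0.0138). Without unstimulated replicate 1 it was -0.70 and still passed. The call was lost in the gene-wise test (adjusted p = 0.104).

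TRIM26, reported to act on the transcription factor IRF3, had 6.52, 6.71 and 6.71 with PMA, against 6.21, 6.0 and 6.04 unstimulated. The groups did not overlap. The difference was 0.56 ± 0.10 (SE, n = 3 each; 1.48-fold; limma adjusted p = 0.00561), and its other probe set gave 0.50. It is 1 of 7 measured TRIM genes of the MHC region on chromosome 6, and none of the other 6 was called. That is a share of 14.3%, against 26.4 percent of all genes. TRIM15, its nearest protein-coding neighbour among the members, had a difference of -0.24 ± 0.10 (SE; limma adjusted p = 0.141). The several probe sets of TRIM15 held identical values, as did those of TRIM27, so they are not separate measurements.

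The antiretroviral members TRIM5 and TRIM22 did not pass the test on all 6 arrays. TRIM5, which recognises incoming retroviral capsids, had 6.54, 6.29 and 6.97 with PMA, against 6.55, 7.02 and 7.04 unstimulated. TRIM22, an interferon-inducible factor encoded beside TRIM5 on chromosome 11, had 6.34, 6.33 and 5.27 with PMA, against 4.91, 5.81 and 6.34 unstimulated. Both pairs of groups overlapped. For TRIM5 the difference was -0.27 ± 0.20 (SE, n = 3 each; limma adjusted p = 0.401). It was -0.46 without PMA replicate 3, -0.43 without unstimulated replicate 1 and -0.11 without PMA replicate 2, and passed in none of these. With PMA replicate 3 and unstimulated replicate 1 both left out TRIM5 was -0.62 and passed (limma adjusted p = 0.00257). Those arrays lay furthest from their group means over all genes, so that pass is not read as a change. TRIM22 had a wide spread in each (SD 0.61 with PMA and 0.72 unstimulated), so its 95% interval ran from -0.64 to 1.23. PMA replicate 3 was the lowest PMA array for TRIM22 and unstimulated replicate 1 the lowest unstimulated array. Of 21 measured interferon signalling and interferon-stimulated genes, unstimulated replicate 1 was the lowest of its group for 16 and the highest for 4 (BST2, IRF1, TYK2 and USP18). Of the 9 interferon-inducible TRIM genes it was the lowest for 6 and the highest for 3 (TRIM14, TRIM21 and TRIM26). OAS2 had 6.59 there, against 8.16 and 8.31 on the other unstimulated arrays, and MX1 had 5.34, against 6.58 and 6.73. The part of this array in the result for TRIM22 was not tested beyond leaving it out, which turned the difference to -0.09 (limma adjusted p = 0.882).

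Of the remaining sensing regulators, none was called. TRIM21, the cytosolic antibody receptor, had 8.01, 7.77 and 7.69 with PMA, against 8.08, 7.82 and 7.81 unstimulated, and the groups overlapped. TRIM56, reported to act on STING and cGAS, had 7.63, 7.81 and 7.68 with PMA, against 7.86, 7.91 and 8.04 unstimulated. Its PMA arrays were all lower, but the difference of -0.23 ± 0.10 (SE, n = 3 each) did not pass (limma adjusted p = 0.129). TRIM38, which lowers the Toll-like receptor adaptor TRIF, had 7.78, 7.72 and 7.79 with PMA, against 7.69, 7.97 and 8.22 unstimulated. TRIM27, a nuclear and endosomal ligase, had 8.53, 8.57 and 8.66 with PMA, against 9.0, 8.44 and 8.62 unstimulated. In TRIM38 and TRIM27 the groups overlapped, and the 95% intervals of the difference ran from -0.52 to 0.12 and from -0.44 to 0.23.

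**Figure D2:**
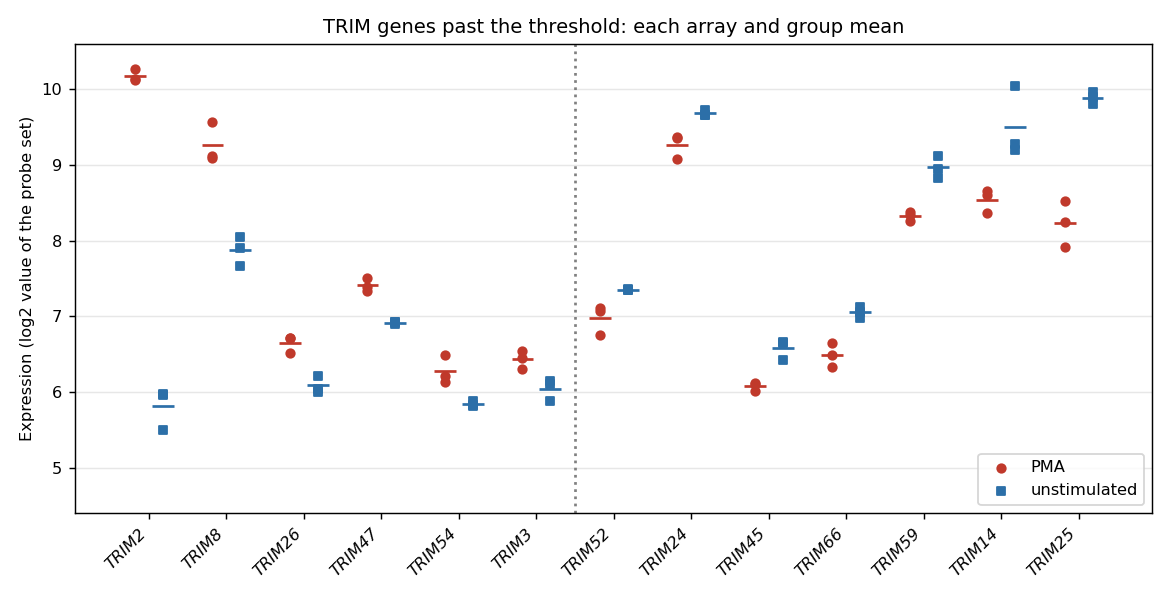
Log2 expression value (y axis) of the 13 called TRIM genes on each PMA array (red circles) and each unstimulated array (blue squares), with the group mean as a bar, ordered by log2 fold change and divided by a dotted line into higher and lower. TRIM2 runs from 10.13 to 10.27 with PMA and from 5.49 to 5.97 unstimulated, and no member's groups overlap.

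The transcription cofactors that join a TRIM module to a PHD finger and a bromodomain, which read histone tails, gave 2 lower members of 4 and none higher, where 13.2 percent of all genes were lower. The median log2 difference was -0.35, and 1 of the 2 calls (TRIM24) was lost when some single arrays were left out. TRIM66, best known from the testis, had 6.34, 6.48 and 6.65 with PMA, against 7.13, 6.97 and 7.06 unstimulated. The groups did not overlap, and the difference was -0.56 ± 0.11 (SE, n = 3 each; limma adjusted p = 0.00685). TRIM24, a nuclear receptor cofactor, had 9.35, 9.37 and 9.08 with PMA, against 9.67, 9.66 and 9.72 unstimulated. Its difference was -0.42 ± 0.11 (SE, n = 3 each; limma adjusted p = 0.0227). The call on TRIM24 was lost without unstimulated replicate 2 (limma adjusted p = 0.0622) or unstimulated replicate 3 (0.0795), when arrays were centred on their medians (0.0738), and by the gene-wise test (0.0673). Without unstimulated replicate 2 or 3 the difference was -0.43 or -0.40, and 3607 genes in all were called each time, against 4854.

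TRIM28, the corepressor that KRAB zinc finger proteins recruit to silence retroelements, had 10.20, 10.12 and 10.09 with PMA, against 10.66, 10.35 and 10.23 unstimulated. Each PMA array was lower than each unstimulated array, yet the difference of -0.28 ± 0.12 (SE, n = 3 each) did not pass (limma adjusted p = 0.151). TRIM33, which binds SMAD proteins in TGF-beta signalling, had 9.96, 10.20 and 10.03 with PMA, against 9.92, 9.81 and 10.03 unstimulated. The groups overlapped, with a 95% interval from -0.10 to 0.39.

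Among members that bind microtubules through a COS box, 1 of 7 was called (14.3%), against 26.4 percent of all genes. TRIM54, a muscle ligase of the MURF group, had 6.49, 6.21 and 6.13 with PMA, against 5.81, 5.88 and 5.83 unstimulated. The PMA arrays were all above, with PMA replicate 1 the highest, and the difference was 0.43 ± 0.11 (SE, n = 3 each; limma adjusted p = 0.024). The call did not outlast the loss of PMA replicate 1 (limma adjusted p = 0.0717), PMA replicate 2 (0.0501) or unstimulated replicates 1, 2 or 3 (0.052, 0.0615 and 0.0761), and the gene-wise test did not make it (0.0776).

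Several members with other roles were also called. TRIM59, a ligase with a transmembrane segment, had 8.26, 8.38 and 8.34 with PMA, against 8.95, 8.83 and 9.12 unstimulated. The groups were tight and apart, with a difference of -0.64 ± 0.10 (SE, n = 3 each; limma adjusted p = 0.003). TRIM45, which carries a filamin-type repeat, had 6.11, 6.12 and 6.02 with PMA, against 6.66, 6.65 and 6.42 unstimulated. Its groups did not overlap, and the difference was -0.49 ± 0.10 (SE, n = 3 each; limma adjusted p = 0.00893).

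TRIM47 had 7.34, 7.5 and 7.38 with PMA, against 6.90, 6.92 and 6.92 unstimulated. All PMA arrays were higher, by 0.49 ± 0.09 (SE, n = 3 each; limma adjusted p = 0.00483). Its neighbour on chromosome 17 among the members, TRIM65, had a difference of -0.10 ± 0.13 and did not pass (limma adjusted p = 0.641).

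TRIM52, a RING protein without the C-terminal domain of most relatives, had 7.07, 6.75 and 7.11 with PMA, against 7.35, 7.35 and 7.36 unstimulated. The unstimulated arrays were nearly equal and all above the PMA arrays. The difference was -0.38 ± 0.11 (SE, n = 3 each; limma adjusted p = 0.0442), the closest to the threshold of the 13 calls. It was lost without PMA replicate 1 (limma adjusted p = 0.0759) or PMA replicate 2 (0.119), and without unstimulated replicate 1 (0.0766), 2 (0.112) or 3 (0.117). It was also lost under all 3 other scalings (limma adjusted p = 0.113 for centring, 0.0591 for quantile and 0.0882 for cyclic loess), with trend and robust variance (0.052), when every probe set was tested (0.0619) and by the gene-wise test (0.11).

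Among the 41 members not called, log2 differences ran from -0.55 to 0.41, and 8 (19.5%) had groups that did not overlap. Over all genes, called or not, that share was 41.2 percent, beside 38.9% of all 54 members. It was not counted for uncalled genes alone, so the 19.5% has no like share here. TRIM37, a ligase that limits centrosome assembly and is mutated in a growth disorder, had 7.82, 8.0 and 7.67 with PMA, against 7.60, 7.23 and 7.41 unstimulated. All its PMA arrays were higher, and the difference was 0.41 ± 0.13 (SE, n = 3 each; limma adjusted p = 0.0527). TRIM37 passed under each of the other scalings (limma adjusted p = 0.035 for centring, 0.0367 for quantile and 0.0244 for cyclic loess), without PMA replicate 3 (0.031) and without unstimulated replicate 1 (0.0278).

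A further 2 members were chosen after their values were seen because they lay near the threshold. TRIM69 had 4.90, 5.11 and 4.74 with PMA, against 4.45, 4.49 and 4.66 unstimulated, so the groups did not overlap, at values near the array lower quartiles. Its difference was 0.39 ± 0.12 (SE, n = 3 each; limma adjusted p = 0.0502), and it passed under each of the other scalings and without PMA replicate 3 (limma adjusted p = 0.0216). TRIM16, which lacks the RING domain, had 5.99, 6.27 and 6.72 with PMA, against 7.03, 6.57 and 7.04 unstimulated. PMA replicate 3 lay within the unstimulated range. The difference was -0.55 ± 0.21 (SE, n = 3 each; limma adjusted p = 0.0891), and without PMA replicate 3 it was -0.75 (limma adjusted p = 0.0139).

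The group means of TRIM48, TRIM63 and TRIM42 lay below the array lower quartile in both groups, though TRIM63 was above it on PMA replicate 3. At such values a change is hard to measure. TRIM48 held the same value, 3.49, on all 3 unstimulated arrays. Array values near the bottom of the range understate changes.

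**Figure D3:**
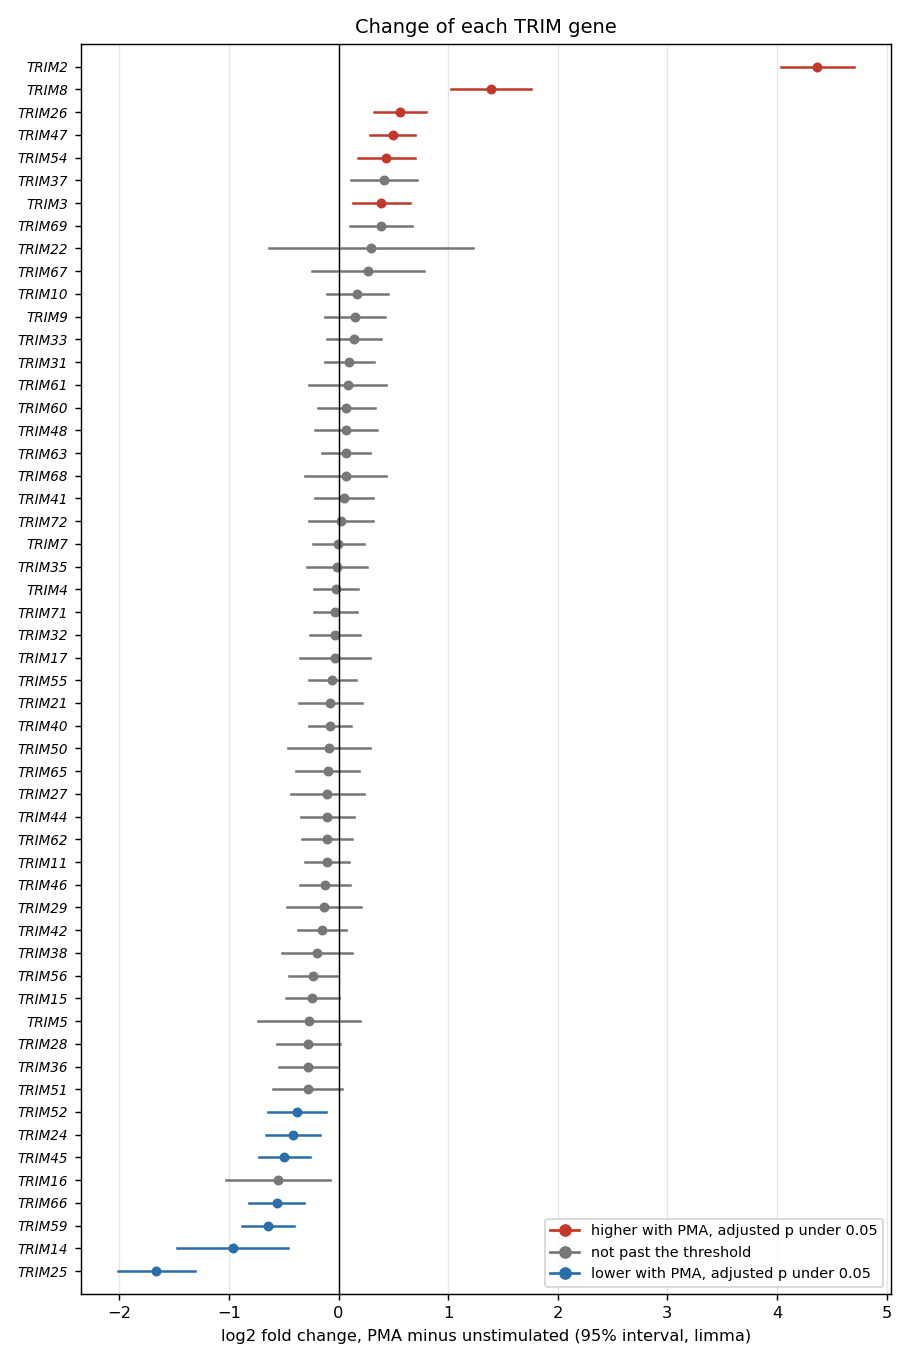
Log2 fold change (PMA minus unstimulated, x axis) of each of the 54 TRIM genes with limma's 95% interval as a line, coloured by whether the gene was higher (red), lower (blue) or not past the threshold (grey). Differences run from -1.66 for TRIM25 to 4.37 for TRIM2, and the 41 grey genes lie between -0.55 and 0.41.

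The genes of proteins that TRIM ligases act on or work with gave the following counts, to be read against 13.2 percent of all genes higher and 13.2 percent lower. Of 17 genes of RIG-I and STING signalling, 7 were higher with PMA and 3 lower, with a median log2 difference of 0.36. TRAF3, a signalling adaptor, had 8.48, 8.67 and 8.19 with PMA, against 7.73, 7.52 and 7.59 unstimulated, a difference of 0.83 ± 0.14 (SE, n = 3 each; limma adjusted p = 0.00316). TANK, a scaffold of the TBK1 kinase, differed by 0.79 ± 0.16 (SE; limma adjusted p = 0.00773). Both had every PMA array above every unstimulated array, and TANK was lost in the gene-wise test (adjusted p = 0.0686).

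STING1, the adaptor that relays the cGAS signal, had 8.05, 7.91 and 8.18 with PMA, against 10.13, 10.14 and 10.12 unstimulated. It had the largest fall of the list, at -2.09 ± 0.10 (SE, n = 3 each; limma adjusted p = 9.35e-06). CGAS, the DNA sensor, had 8.85, 8.75 and 8.29 with PMA, against 9.13, 9.31 and 9.47 unstimulated, with no overlap. Its difference of -0.67 ± 0.16 (SE; limma adjusted p = 0.0185) was lost as a call without unstimulated replicate 2 (limma adjusted p = 0.0643) or 3 (0.0722), and in the gene-wise test (adjusted p = 0.104). RIGI, the RNA sensor on which TRIM25 acts, was chosen after its value was seen. It had 7.43, 7.39 and 7.46 with PMA, against 6.55, 7.07 and 7.23 unstimulated, and did not pass (difference 0.48 ± 0.17, SE; limma adjusted p = 0.0748). In this list 4 genes were higher without PMA replicate 1 and 1 was lower without unstimulated replicate 2. The gene-wise test called 3 higher and 1 lower.

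**Figure D4:**
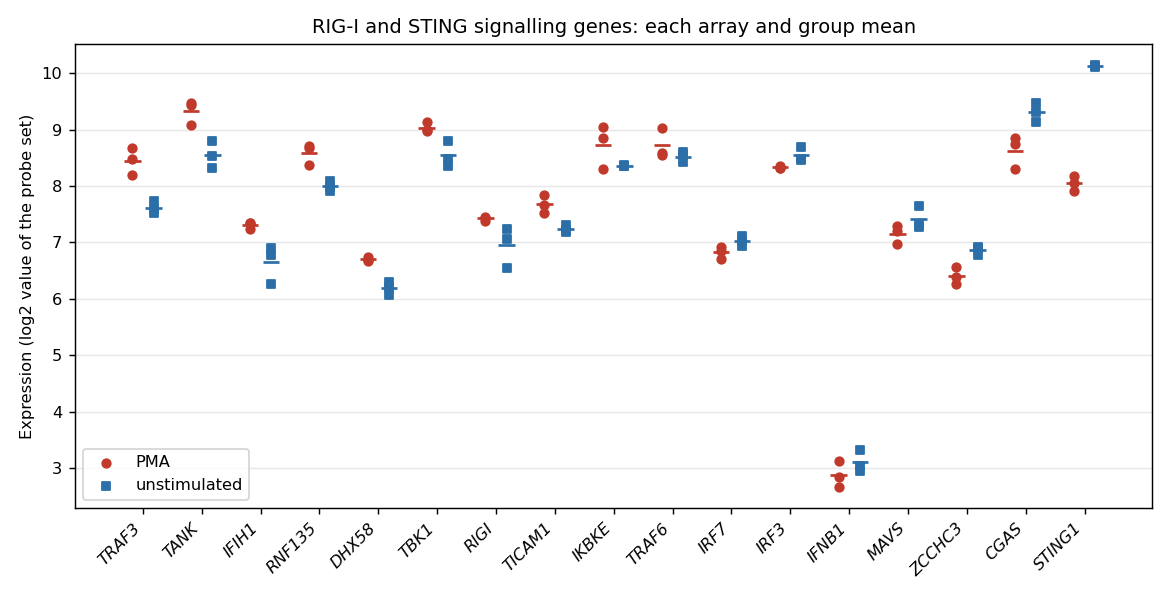
Log2 expression value (y axis) of the 17 RIG-I and STING signalling genes on each PMA array (red circles) and each unstimulated array (blue squares), with the group mean as a bar, ordered by log2 fold change. STING1 lies between 7.91 and 8.18 with PMA and between 10.12 and 10.14 unstimulated, while TRAF3 and TANK lie higher with PMA.

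Of 21 measured interferon signalling and interferon-stimulated genes, 3 were higher and 3 lower, with a median log2 difference of 0.02. OAS3, an RNA-activated synthetase, was higher by 1.4 ± 0.28 (SE, n = 3 each; limma adjusted p = 0.00773), and IFNAR1, a chain of the interferon receptor, by 0.88 ± 0.13 (limma adjusted p = 0.00199). SAMHD1, a nucleotide hydrolase that limits retroviruses, differed by -1.58 ± 0.09 (limma adjusted p = 2.29e-05), and MX2 by -0.96 ± 0.10 (limma adjusted p = 0.000448). Without unstimulated replicate 1, which was low for OAS2 and MX1, 7 genes of the list were lower. The gene-wise test called 2 higher and 2 lower, without OAS3 (adjusted p = 0.0840).

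Of 12 measured partners of the TRIM28 corepressor, none was higher and 4 were lower, with a median of -0.26. SETDB1, the histone methyltransferase that TRIM28 recruits, had 8.69, 8.65 and 8.60 with PMA, against 9.37, 9.34 and 9.27 unstimulated. The groups were tight and apart, with a difference of -0.68 ± 0.08 (SE, n = 3 each; limma adjusted p = 0.00094). The count fell to 1 without PMA replicate 1, and was 2 without PMA replicate 2 or without unstimulated replicate 3.

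Of 11 genes of TGF-beta signalling around TRIM33, 6 were higher and 3 lower, with a median of 0.36. SKIL, a repressor of SMAD proteins, was higher by 1.68 ± 0.17 (SE, n = 3 each; limma adjusted p = 0.000329), and TGFB1, the ligand, by 1.60 ± 0.12 (limma adjusted p = 6.74e-05). SMAD3, a signal transducer of the pathway, differed by -1.27 ± 0.17 (limma adjusted p = 0.00136). The gene-wise test called 2 higher and 2 lower. TRIM33 itself was not called.

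Of 9 measured genes of the PML nuclear body, itself built on a TRIM protein, 2 were higher and none lower, with a median log2 difference of 0.18. SP140, a chromatin reader of immune cells, was higher by 1.48 ± 0.09 (SE, n = 3 each; limma adjusted p = 3.61e-05), and HIPK2, a kinase, by 1.43 ± 0.14 (limma adjusted p = 0.000294). Of 6 TRIM proteins that go under other symbols, and so are no members, 2 were lower and none higher. MEFV, the pyrin protein of familial Mediterranean fever, had 6.25, 6.66 and 6.80 with PMA, against 8.10, 8.41 and 8.37 unstimulated, a difference of -1.72 ± 0.16 (SE, n = 3 each; limma adjusted p = 0.000227). MID2, a microtubule-bound ligase, differed by -0.80 ± 0.12 (limma adjusted p = 0.00263).

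Of 17 measured genes of other ubiquitin ligases and their complexes, not all of the RING type, 6 were higher and 2 lower, with a median of 0.14. CBLB, a brake on receptor signalling, was higher by 1.63 ± 0.29 (SE, n = 3 each; limma adjusted p = 0.00479). SMURF2, a ligase of TGF-beta receptors, was higher by 1.08 ± 0.13 (limma adjusted p = 0.00076). PELI2, a ligase of Toll-like receptor signalling, differed by -1.58 ± 0.14 (limma adjusted p = 0.000201). The count of lower genes was 1 without PMA replicate 1 or 2 and 4 without unstimulated replicate 1. The gene-wise test called 2 higher, without CBLB (adjusted p = 0.0693). Of 8 measured ubiquitin-conjugating enzymes and ubiquitin genes, 1 was lower (UBB) and none higher, and UBB was lost without PMA replicate 2 (limma adjusted p = 0.0522) and when arrays were centred on their medians.

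Promoter letters were read for the 42 members with a RefSeq entry and for 14239 tested genes. The response element was found in 7 of 42 members, or 16.7%, against 2.57% of tested genes. Those 7 were TRIM2 and TRIM26, which were higher, TRIM14, which was lower, and TRIM5, TRIM16, TRIM44 and TRIM69, which were not called. In the printed sequences the match lies at -217 to -208 in TRIM2, at -26 to -17 in TRIM14, and at a pair of overlapping places in TRIM26, -194 to -185 and -188 to -179, counted from the base before the start as -1. For TRIM2, only 1 of 6 listed starts had it. The AP-1 site (TGANTCA) was found in 5 members, or 11.9%, against 4.87%. Of called members TRIM54 had it in the window read, at -137 to -131, and TRIM2 had it at 1 of its 6 listed starts, outside the window printed above. The GAS element (TTCNNNGAA) was found in 4 members, or 9.52%, against 6.14%, and the SP1 box (GGGCGG) in 22 members, or 52.4%, against 57.3%. Each motif was searched on both strands, and a match describes the letters of these windows and nothing of the factor.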

How the data were processed

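The authors deposited a table of log2 values, 1 per probe set and array, for 6 Affymetrix arrays of biotin-labelled total RNA. The submitters' processing notes name RMA and Partek, with versions not given in the sources used here. That method, RMA, includes a background correction and quantile normalization, and it compresses changes near background. Precision is limited by the number of arrays.

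Of 33297 probe sets, 19460 carried 1 symbol in the platform annotation (19429 matched by gene ID to the GRCh38.p14 gene table), 1754 several and 12083 none there; those with several or none were not tested as genes. No dim genes were left out. Groups came from the sample titles. A linear model with a term for group was fitted to 18417 genes in limma 3.58.1 (R 4.3.3; default eBayes, 7.71 degrees of freedom) with Benjamini-Hochberg adjustment at a threshold of 0.05, and the median SE was 0.115. The steps were tested on simulated data. Figures used matplotlib 3.10.9.

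The members, the gene lists and the rule for named genes were chosen with earlier results of these data known. The rule allows every called member, with array values for the 8 highest and 8 lowest called and for 13 members whatever their values (TRIM5, TRIM14, TRIM21, TRIM22, TRIM24, TRIM25, TRIM27, TRIM28, TRIM32, TRIM33, TRIM37, TRIM38 and TRIM56), and up to 3 called genes per list and direction. The named list genes are part of those it allows, a choice made after values were seen. Alternatives covered scaling, dim genes, probe set choice, variance model, threshold, a replicate block and leaving out arrays.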

Additional observations from a re-analysis of the deposited data

Results flagged for a closer look

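Probe sets that carry several symbols stand for no member, and 22 of them name a TRIM gene. All 33297 probe sets were tested, and 19.6 percent of them were called in either direction. Of the 22, 3 were higher with PMA and 1 was lower. In those 3, every PMA array was above every unstimulated array. Several of the 22 hold identical values, so they are not all separate measurements. A probe set shared by KCNRG and TRIM13 had 9.14, 9.16 and 9.18 with PMA, against 8.18, 8.03 and 8.12 unstimulated (log2 difference 1.05 ± 0.09, SE, n = 3 each; limma adjusted p = 0.00034). Another of the same pair had 8.02, 7.86 and 8.02 with PMA, against 7.01, 7.02 and 7.01 unstimulated (0.95 ± 0.09; limma adjusted p = 0.000601). A probe set shared by TRIM6, TRIM34 and their read-through gene had 6.09, 5.71 and 5.99 with PMA, against 5.09, 5.30 and 5.32 unstimulated (0.69 ± 0.13; limma adjusted p = 0.0102). Which of the genes gave these signals cannot be told apart.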

How the results depend on the processing

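TRIM2, TRIM8 and TRIM25 kept their calls under all 21 alternatives, and none of the 13 called members changed sign in any. Leaving out each array in turn gave 4 to 7 members higher, 5 to 8 lower, 3 to 4 changed at least 2-fold and 3323 to 5042 genes called in all; 9 of the 13 called members kept their call each time. The gene-wise test without shared variance called 4 members higher, 4 lower and 2843 genes in all. An adjusted p of 0.01 gave 4 higher, 4 lower and 2824 genes. With treat against a 1.5-fold change, 2 were higher, 1 lower and 1125 genes were called. Among uncalled members followed under the alternatives, TRIM21, TRIM22, TRIM27, TRIM32 and TRIM67 changed sign in some and passed in none. TRIM5, TRIM16, TRIM37 and TRIM69 kept their sign and passed in 1 or more. TRIM21 was 0.0094 when centred, 0.026 with array quality weights and 0.077 without both arrays that stand apart (PMA replicate 3 and unstimulated replicate 1), and ran from -0.17 to 0.011 as single arrays were left out. On leaving out single arrays TRIM22 ran from -0.092 to 0.65, TRIM27 from -0.22 to 0.054, TRIM32 from -0.074 to 0.032 and TRIM67 from -0.0098 to 0.42. Without both arrays TRIM27 was 0.020 and TRIM67 -0.024, and TRIM32 was 0.052 when centred and 0.036 under cyclic loess. Without both arrays 19 members and 6310 genes in all were called, and with array weights 17 and 6237. With all arrays and no weights the counts were 13 and 4854. PMA replicate 3 and unstimulated replicate 1 lay furthest from their group means over all genes, with a mean absolute deviation of 0.14 each. Leaving them out lowers the spread within groups, and array weights follow that spread too. The added calls are therefore no separate support, and the cause of the rise was not tested. TRIM3, TRIM26, TRIM45, TRIM54 and TRIM66 were not tested when genes below the median were left out. With the replicate number as a block, 11 members were called (5 higher, 6 lower), all among the 13, and 4726 genes in all. TRIM3 (limma adjusted p = 0.0589) and TRIM52 (0.0584) were lost there. The titles number both groups 1 to 3 but do not state a pairing, and the main model took none. Deviations of same-numbered arrays correlated at 0.15, -0.04 and 0.09. With 3 arrays a group such correlations cannot exclude a pairing. With 3 arrays a group, changes near the median SE of 0.115 are not resolved, and larger ones can be missed. The smallest fold change called was 1.20 over all genes and 1.30 among the members. A member that was not called is therefore not shown to be unchanged.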

Other observations

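Of the other probe sets that name TRIM genes beside another symbol, the one shared by TRIM16 and TRIM16L was lower with PMA. It had 6.28, 5.96 and 6.34 with PMA, against 7.03, 6.68 and 6.83 unstimulated, with a log2 difference of -0.65 ± 0.14 (SE, n = 3 each; limma adjusted p = 0.018 over all probe sets), beside -0.55 for the probe set of TRIM16 alone. TRIM39, a ligase of the MHC region, had 6.0, 5.97 and 6.16 with PMA, against 5.75, 5.78 and 5.70 unstimulated, on a probe set shared with its read-through gene. That difference of 0.30 ± 0.09 (SE) did not pass (limma adjusted p = 0.063). TRIM67 was chosen after its values were seen because 1 array set its difference: it had 5.82, 5.86 and 6.68 with PMA, against 5.82, 5.92 and 5.81 unstimulated, and the difference of 0.27 became -0.01 without PMA replicate 3.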
